A study of Mus musculus with 2 samples.

Results

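Granulocyte-monocyte progenitors, the proliferating precursors of neutrophils and monocytes, were examined in single-cell RNA sequencing (scRNA-Seq) of the arthritic mouse temporomandibular joint (TMJ, the jaw joint). Members were chosen by their unique molecular identifiers (UMIs, 1 per captured transcript). A kept cell had at least 500 detected genes and under 10% mitochondrial UMIs. A member had at least 20 UMIs of Elane, Mpo and Prtn3 together, under 1% of its UMIs from the later granule genes Ngp, Camp and Ltf, and at most 2 UMIs of the macrophage genes C1qa, C1qb and C1qc. The rule found 96 members among 10109 kept cells, 51 in the WT library and 45 in the Prox1 mutant library. Both libraries came from C57BL/6 mice aged 8 to 10 weeks per the labels, and the study's text describes them as female. The mutant was a Prox1+/- heterozygote, which carries 1 disrupted copy of the transcription factor that specifies lymphatic endothelium, and the study used it as a model of lymphatic deficiency. All mice of both genotypes received complete Freund's adjuvant (CFA), an inflammatory emulsion, by injection into the joint. The number of animals behind each library was not given in the sources used here. With 1 library per genotype there was no replicate, so genotypes were set side by side with no p-value, and all intervals are 95% intervals that cover counting error only.

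Prox1, the altered gene, was read first. Its level over all kept cells was 11.6 UMIs per 1000000 UMIs (counts relative to the total, CPM; 563 UMIs) in the WT library and 5.80 CPM (315 UMIs) in the mutant library. In endothelial cells it was 36.7 CPM (32.7 to 41.1) and 21.4 CPM (17.4 to 26.2). No Prox1 UMI was found among the members of either library, which allowed levels of up to 2.62 CPM in WT and 4.89 CPM in mutant members.

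Granulocyte-monocyte progenitors arise in the bone marrow from multipotent progenitors and give rise to neutrophils, monocytes and related myeloid cells. They make the proteins of the primary (azurophil) granules, the serine proteases encoded by Elane, Prtn3 and Ctsg and the peroxidase encoded by Mpo, before the genes of the later granules are switched on. Induction of Gfi1 and Cebpe accompanies the neutrophil fate, and Irf8 is required for the monocyte fate. The marker genes lie at these positions of the GRCm38 (mm10) build. Prtn3 and Elane are neighbours on the plus strand, at chr10:79874476-79883174 and chr10:79886247-79888215. Mpo lies at chr11:87793581-87804413 on the plus strand, Ctsg at chr14:56099881-56102574 on the minus strand and Ms4a3, which encodes a membrane protein of this stage, at chr19:11629496-11640851 on the minus strand.

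The 250 bases upstream of the RefSeq starts of Elane, Mpo, Prtn3 and Ctsg are shown because these genes chose or marked the members (GRCm38.p6, each 5′ to 3′ on its gene's strand). The gene positions above are from GENCODE M21, whose starts differ, so that the Elane, Mpo and Prtn3 windows lie in part or, for Prtn3, wholly inside the longer GENCODE genes. Capitals mark the letters GAGGAA, a core of sites for the ETS family that includes PU.1, and TGTGGT, a core of RUNX sites, where they occurred on either strand.
Elane, chr10:79886062-79886311, plus strand: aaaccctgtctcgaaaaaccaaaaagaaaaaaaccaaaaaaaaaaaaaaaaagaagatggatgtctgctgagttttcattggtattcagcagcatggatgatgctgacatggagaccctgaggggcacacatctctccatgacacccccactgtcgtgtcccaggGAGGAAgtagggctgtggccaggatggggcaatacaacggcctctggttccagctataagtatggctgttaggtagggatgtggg
Mpo, chr11:87793534-87793783, plus strand: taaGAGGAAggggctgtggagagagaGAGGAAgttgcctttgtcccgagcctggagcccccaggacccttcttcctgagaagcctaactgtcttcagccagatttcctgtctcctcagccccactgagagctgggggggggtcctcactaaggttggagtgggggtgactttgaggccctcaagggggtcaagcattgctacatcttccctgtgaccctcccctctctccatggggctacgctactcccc
Prtn3, chr10:79879417-79879666, plus strand: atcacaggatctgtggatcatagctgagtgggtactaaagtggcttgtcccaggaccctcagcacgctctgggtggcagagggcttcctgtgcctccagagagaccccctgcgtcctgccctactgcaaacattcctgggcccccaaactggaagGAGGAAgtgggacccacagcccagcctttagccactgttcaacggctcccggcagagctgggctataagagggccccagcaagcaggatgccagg
Ctsg, chr14:56102575-56102824, minus strand: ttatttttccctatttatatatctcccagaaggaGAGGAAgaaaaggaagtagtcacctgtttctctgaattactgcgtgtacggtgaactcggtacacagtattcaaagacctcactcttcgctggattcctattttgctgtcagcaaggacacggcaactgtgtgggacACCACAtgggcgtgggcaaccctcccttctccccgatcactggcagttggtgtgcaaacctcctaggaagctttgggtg
GAGGAA was found in 4 of the 5 marker promoters, 85 bases before the start of Elane, 247 and 224 before Mpo, 95 before Prtn3 and 216 before Ctsg, and not in that of Ms4a3. The same letters occurred in 23.3% of 32851 promoters of the same length. TGTGGT was found only in the Ctsg promoter among the 5, and in 14.0% of all promoters. The C/EBP letters TTGCNNAA were in none of the 5 and in 9.56% of all, and the MYB letters AACNG, which are not in capitals, were in 4 of the 5 and in 74.2% of all. A match of letters describes these windows and shows no binding, and the motif searches did not overlap in letters.

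The libraries differed in depth, and this touched the members. The WT library held 5709 barcodes and 53517206 UMIs, of which 4352 cells with a median of 6997 UMIs were kept. The mutant library held 7846 barcodes and 62446987 UMIs, with 5757 kept cells and a median of 4848 UMIs. WT members held 1405302 UMIs (median 24869 per member) and mutant members 754834 (median 15203). No member lay between 5638 and 9420 UMIs, so the members fell into a deep and a shallow set, divided here at 6000 UMIs. There were 50 deep and 1 shallow member in WT, against 24 deep and 21 shallow members in the mutant. Deep members had a median of 25858.5 UMIs in WT against 27743.5 UMIs in the mutant. Among the 21 shallow mutant members, the median was 3080 UMIs, 19 had over 1% of UMIs from hemoglobin genes, and the median hemoglobin share was 14.9%. The shallow set held 9.40% of all mutant member UMIs. Shallow hemoglobin-rich droplets were common in the mutant library, with 1948 kept cells of this kind against 47 in WT, and 19 of the 1948 and 0 of the 47 were members. Values for deep members, which leave these droplets out, are given below for the member shares and for most of the ratios between genotypes. With deep members alone, 1066 genes were higher and 1469 lower than in classical monocytes in the population contrasts below, and 1464 and 1945 than in immature neutrophils. There were 10 barcodes found in both libraries, none of them a member, and a doublet caller marked 2 members in each library.

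**Figure D1:**
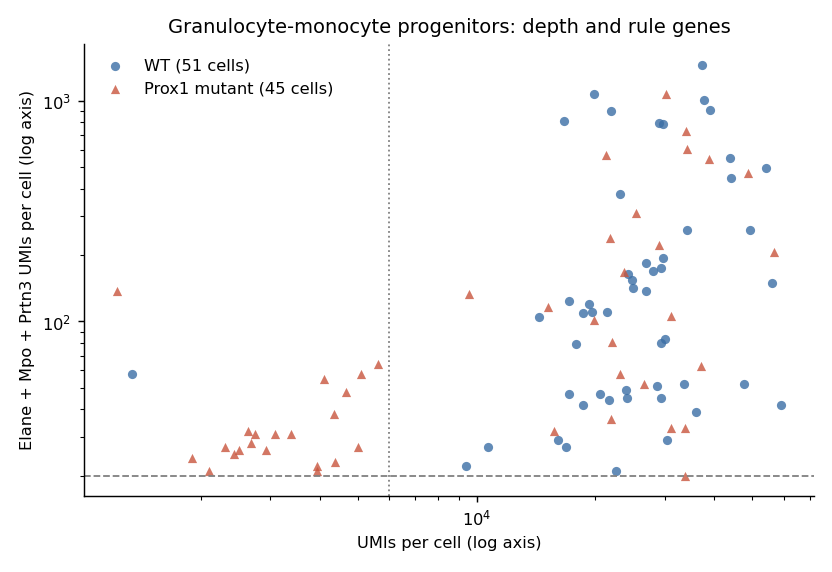
UMIs per member (x axis, log scale) against the summed UMIs of Elane, Mpo and Prtn3 (y axis, log scale) in the WT and Prox1 mutant libraries. Kept cells that are not members are not drawn. The dashed line is the 20 UMIs of the rule and the dotted line 6000 UMIs, which parts 50 deep from 1 shallow member in WT and 24 deep from 21 shallow members in the mutant.

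The summed Elane, Mpo and Prtn3 UMIs, which chose the members, ran from 21 to 1464 per member in WT, with a median of 110, and from 20 to 1072 in the mutant, with a median of 52. As a share of a member's UMIs the order was the other way, with medians of 0.562% in WT and 0.971% in the mutant. The lowest 3 members had 21, 22 and 27 UMIs in WT and 20, 21 and 21 in the mutant. The highest cells outside had 19, 18 and 18 in both libraries. Just outside, 17 WT and 15 mutant cells lay at 10 to 19 UMIs, and just inside, 6 of 51 WT and 12 of 45 mutant members at 20 to 29, so the mutant set was denser at the limit. Of the 70 WT cells with 20 or more UMIs, 15 were removed by the limit on later granule genes and 4 by the limit on C1q genes. Of the 61 mutant cells, 10 and 6 were removed in these ways. The granule limit met a gap, since the highest member was at 0.583% in WT and 0.330% in the mutant, and the lowest removed cell at 2.02% and 1.69%.

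Members were a smaller share of kept cells in the mutant library, and the size of this difference followed the depth of the cells. By the exact Clopper-Pearson method, WT had a share of 1.17% (0.874 to 1.54), and the mutant one of 0.782% (0.571 to 1.04). The mutant minus WT difference was -0.390 percentage points (-0.805 to -0.00678, Newcombe's method). Deep members were 1.15% (0.854 to 1.51) and 0.417% (0.267 to 0.620), a difference of -0.732 points (-1.12 to -0.389). Shallow members were 0.0230% of kept WT cells and 0.365% of kept mutant cells, a difference of 0.342 points the other way. A limit of 0.2% of a cell's UMIs in place of 20 UMIs turned the direction, with 0.988% in WT and 1.37% in the mutant. Whether joint tissue or adjoining bone marrow supplied the members was not tested.

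Elane, which encodes neutrophil elastase, was at 3384 CPM in WT and 3346 CPM in mutant members. It ran from 0 to 560 UMIs per cell in WT, with a median of 24, and from 0 to 469 in the mutant, with a median of 18. Per 10000 UMIs, which allows for depth, the Elane medians were 10.5 in WT and 39.8 in the mutant, and in deep members 9.69 and 11.2. Immature neutrophils, gated on Ngp and Camp, were at 1034 and 241 CPM of Elane, and classical monocytes, gated on Ccr2 and Ly6c2, at 26.2 and 20.9 CPM. Endothelial cells, which do not make elastase, were at 4.68 and 12.9 CPM. The gates of classical monocytes, mature neutrophils, B lineage cells and endothelial cells took only cells under 20 UMIs of Elane, Mpo and Prtn3 together. Low levels of these genes there were thus partly built in. The monocyte gate also carried the rule's limits on C1q and later granule genes. Mpo, myeloperoxidase, was at 1690 and 2389 CPM in members, with medians of 22 and 8 UMIs per cell, or 11.2 and 20.7 per 10000 UMIs. Prtn3, proteinase 3, was at 4407 and 3282 CPM, with medians of 67 and 17 UMIs, or 29.7 and 28.6 per 10000. These 3 genes chose the cells, so their levels only describe them.

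Ctsg and Ms4a3 were no part of the rule but move with its genes. Ctsg, the granule protease cathepsin G, had a UMI in 50 of 51 WT and 44 of 45 mutant members. Its level was 1707 CPM in WT and 1498 CPM in mutant members, against 105 and 14.4 CPM in immature neutrophils and 10.7 and 9.10 CPM in classical monocytes. Both libraries gave the same order of the 3 populations. Ms4a3 had a UMI in 36 of 51 and 31 of 45 members, at 399 and 342 CPM. It was at 124 and 32.5 CPM in immature neutrophils and at 5.35 and 0.455 CPM in classical monocytes. Of the genes of earlier progenitors, Kit, the stem cell factor receptor, had a UMI in 13 of 51 WT and 10 of 45 mutant members, and Cd34, a surface sialomucin, in 20 and 16. Irf8 had a UMI in 39 of 51 and 32 of 45 members, Myb, a transcription factor of immature blood cells, in 31 and 30, and Cebpa, the factor required to form these progenitors, in 30 and 16. Among deep members, Irf8 was found in 39 of 50 WT and 19 of 24 mutant cells, Myb in 31 and 21 and Cebpa in 30 and 14. The 21 shallow mutant members had Cebpa in 2 cells, Spi1, which encodes PU.1, in 8, and no UMI of Kit, Flt3 or Gfi1. Their median was 3080 UMIs against 27743.5 in deep mutant members. At that depth such low counts do not show that a gene was absent.

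**Figure D2:**
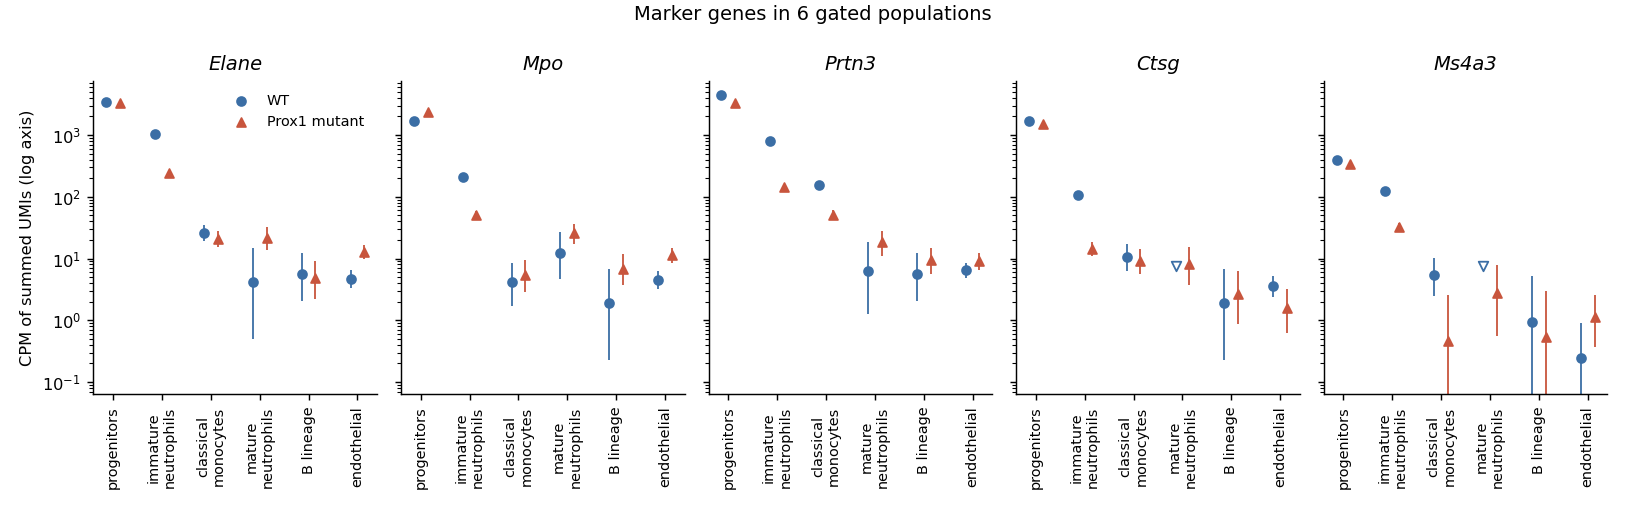
Summed level in CPM (log scale) of the 5 marker genes in the progenitors and 5 other gated populations of each library, with 95% Poisson intervals. Open triangles mark the upper limit where no UMI was counted, and Ctsg and Ms4a3 were highest in the progenitors of both libraries.

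Of the members, 3 WT and 4 mutant cells carried genes of basophils and mast cells, which the label does not cover. Mcpt8, a protease of basophils, was at 77, 219 and 350 UMIs in the WT cells and from 31 to 905 UMIs, with a median of 358.5, in the mutant cells. Every other member had at most 1 Mcpt8 UMI. In WT these 3 cells held all 2293 UMIs of Prss34, a basophil and mast cell protease, all 240 of Cpa3, mast cell carboxypeptidase, and all 126 of Fcer1a, the IgE receptor alpha chain. In the mutant 1244 Prss34 UMIs came from 3 of the 4 cells, and 1 from another member. The 3 WT cells had no Elane UMI and passed mainly through 19, 27 and 49 Mpo UMIs, the first with 3 Prtn3 UMIs as well. Their Ctsg counts were 26, 108 and 118 UMIs. The 4 mutant cells had 39 to 82 Mpo UMIs and 1 to 20 Elane UMIs. None of these 7 cells had a UMI of Ly6c2, a surface antigen of monocytes and their precursors, while 43 of the other 48 WT and 37 of the other 41 mutant members had one. Irf8 was at 0 UMIs in the WT cells and 1 UMI in the mutant cells. Without these 7 cells, a step chosen after seeing the data, the shares were 1.10% and 0.712%, and the difference was -0.391 points (-0.793 to -0.0211). The label was not shown to fit all other members either. Ccr2, which with Ly6c2 gates the classical monocytes, had a UMI in 37 of the other 48 WT and 18 of the other 41 mutant members. A member with at least 2 UMIs of each gene was kept from that gate only by its Elane, Mpo and Prtn3 UMIs. Of the 21 shallow mutant members, 19 had over 1% of UMIs from hemoglobin genes.

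Among the deep members, the levels of other genes are described over the level of the rule's genes, which chose the cells, so that no test was made. Members were set into 3 ranges of summed Elane, Mpo and Prtn3 UMIs per 10000 UMIs, chosen after seeing the values: under 50 (22 WT, 11 mutant cells), 50 to under 150 (19, 9) and 150 or more (9, 4). Ctsg went from 685 through 1405 to 4735 CPM over the ranges in WT and from 815 through 1613 to 3298 CPM in the mutant. Cells with basophil genes carried much of Ctsg in the lowest range, which would be lower without them. The 3 WT cells of this kind held 252 of its 411 UMIs there. In the mutant, 2 such cells held 48 and 108 of 271. The gene F13a1, which encodes the coagulation factor XIII A chain made by monocytes, was at 1851, 1866 and 421 CPM in WT and at 2160, 1052 and 594 CPM in the mutant. Both genes thus ended at opposite extremes in either library. Lyz2, lysozyme, was at 4787, 2799 and 799 CPM in WT and at 2954, 625 and 335 CPM in the mutant. Csf1r, the receptor of the macrophage growth factor, was at 152, 92.7 and 11.8 CPM in WT and at 96.3, 90.6 and 8.37 CPM in the mutant. Irf8 was at 337, 427 and 102 CPM in WT and at 496, 401 and 285 CPM in the mutant.

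Neutrophil genes were less uniform between the libraries. Gfi1, the repressor that favours the neutrophil fate, had 0, 2 and 14 UMIs over the 3 ranges in WT and 2, 4 and 3 UMIs in the mutant. Cebpe, needed for later granule genes, was at 15.0, 9.09 and 173 CPM in WT but at 33.1, 56.1 and 16.7 CPM in the mutant, where the highest range held only 4 cells. Fcnb, a ficolin of neutrophil precursors, was at 11.7, 16.4 and 106 CPM in WT and at 24.1, 77.6 and 360 CPM in the mutant. Ly6c2 was at 1181, 1554 and 1071 CPM in WT and at 2015, 1475 and 2042 CPM in the mutant and showed no steady direction. Mki67, a proliferation gene, was at 505, 483 and 110 CPM in WT and at 653, 129 and 117 CPM in the mutant. Myb was at 60.0, 83.6 and 311 CPM in WT and at 117, 448 and 318 CPM in the mutant.

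**Figure D3:**
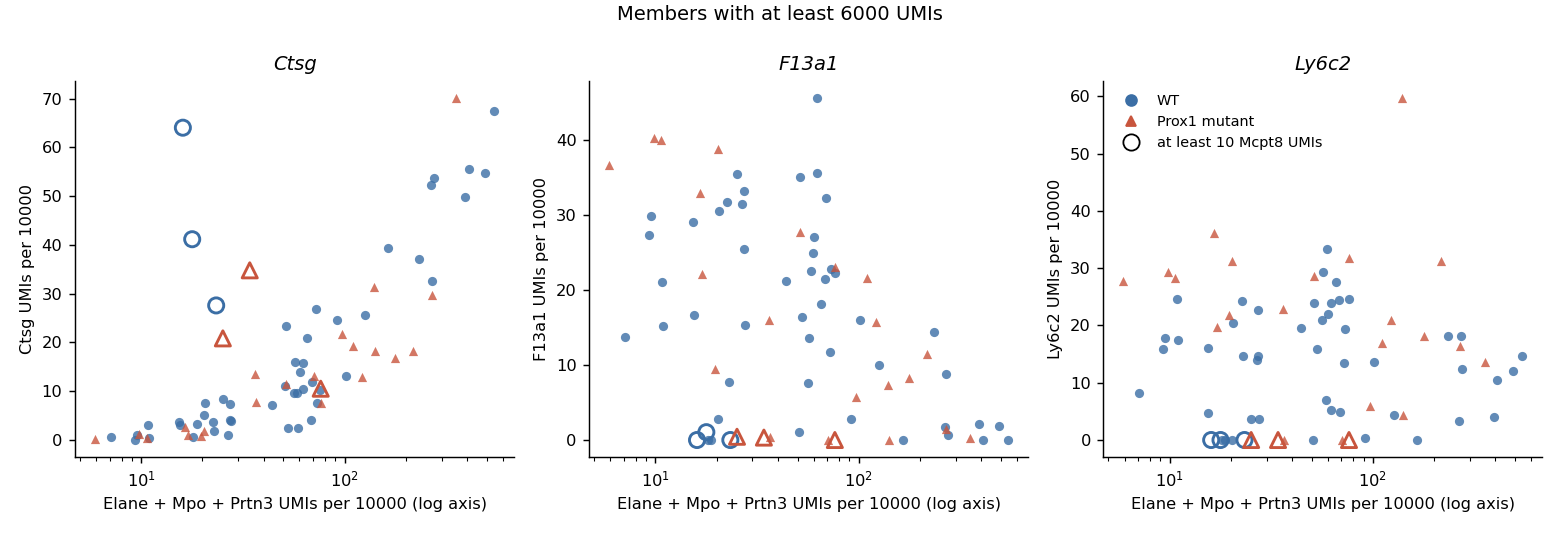
Ctsg, F13a1 and Ly6c2 per 10000 UMIs in each deep member against the summed Elane, Mpo and Prtn3 UMIs per 10000, for 50 WT and 24 mutant cells. Open symbols are the cells with at least 10 Mcpt8 UMIs, which lacked Ly6c2; Ctsg was higher and F13a1 lower at the right of the plots.

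Across these cells, Spearman's rho between the rule's genes and a list of 8 monocyte genes was -0.321 in WT (n = 50) and -0.567 in the mutant (n = 24). With 8 neutrophil genes it was 0.433 and 0.458, and with 16 G2 and M phase genes -0.174 and -0.609. These are descriptions only, since the rule's genes chose the cells, the cells share a library and the values share each cell's total. The neutrophil and monocyte lists had a rho of -0.180 and -0.0966 with each other. To compare cells at an equal depth, all were thinned to 2000 UMIs, which left out 1 WT and 2 mutant members. At least 2 monocyte-list UMIs were then found in 74.0% of WT (37 of 50) and 74.4% of mutant members (32 of 43), and at least 2 neutrophil-list UMIs in 20% and 20.9%. The neutrophil-list share was 6.54% and 6.50% in classical monocytes and 95.8% and 71.3% in immature neutrophils. The monocyte list is broad, as 47.7% and 40.7% of endothelial cells also passed, through genes such as Ctss and Klf4. Before thinning, 82.4% and 60.0% of members passed for the neutrophil list, and 92.2% and 93.3% for the monocyte list.

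Members carried genes of the G2 and M phases, which take part in mitosis, more often than mature cells did. At 2000 UMIs, at least 3 such UMIs were found in 56.0% (41.3 to 70.0) of WT and 53.5% (37.7 to 68.8) of mutant members. The share was 35.0% and 30.1% in immature neutrophils, 15.9% and 17.9% in classical monocytes, 1.16% and 6.16% in mature neutrophils and 1.29% and 2.28% in endothelial cells. The interval of members lay above those of classical monocytes and mature neutrophils in both libraries, and those of immature neutrophils overlapped it in WT. Before thinning the members' shares were 90.2% and 77.8%. In deep members thinned to 9000 UMIs they were 84.0% and 79.2%.

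The progenitors were next compared with classical monocytes and immature neutrophils, the populations on either side of their fate. Counts were summed per population and library, 10548 genes were fitted by edgeR's quasi-likelihood test with library as a block, and p-values were adjusted by the Benjamini-Hochberg method. The populations were gated on the same cells that were tested, so the calls describe how far gated populations stood apart, and gate genes were left out of the lists. The spread behind the adjusted p was shared by 8 sums, of 4 populations in 1 WT and 1 mutant library. It thus holds no replicate of either genotype. Against classical monocytes 1207 genes were higher in progenitors (11.4% of those tested) and 1448 lower (13.7%). Against immature neutrophils 1483 were higher (14.1%) and 1955 lower (18.5%). The median of all genes was 0.04 and -0.01 on the log2 scale. Both comparisons share the same progenitor sums.

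Primary granule genes were mostly higher in progenitors than in either population. The rule chose members by Elane, Mpo and Prtn3 of this group, and the monocyte gate limited the same genes. Higher values of genes that move with them were thus partly built in, and the adjusted p-values only describe these gated cells. Of the 9 listed genes tested, 7 were higher and none lower than in classical monocytes (median log2 difference 3.21), and 7 were higher and 1 lower than in immature neutrophils (median 1.75). Ctsg differed from classical monocytes by 7.35 (SE 0.81, edgeR adjusted p = 0.00146) and from immature neutrophils by 4.63 (SE 0.69, adjusted p = 0.00195). Ms4a3 differed by 7.17 and 2.03 (edgeR adjusted p = 0.000844 and 0.00875). Cst7, cystatin F, an inhibitor of granule protease maturation, differed by 4.24 and 3.26. Prss57, another granule protease, differed by 6.11 and 1.34. The exception was Serpinb1a, an inhibitor of these proteases, which was higher than in classical monocytes by 2.79 and lower than in immature neutrophils by 2.25 on the log2 scale. Its levels were 184 and 123 CPM in WT and mutant progenitors and 638 and 415 CPM in immature neutrophils.

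Later granule genes were lower in progenitors. All 11 tested were lower than in immature neutrophils (median -5.00), and 7 of 11 were lower than in classical monocytes (median -2.05). The rule limited 3 other genes of this group, so low values were partly built in. Lcn2, lipocalin 2, was at 88.9 and 35.8 CPM in WT and mutant progenitors and at 10968 and 7836 CPM in immature neutrophils, a log2 difference of -7.69 (SE 0.56, edgeR adjusted p = 0.000137). S100a9, a calcium-binding alarmin, was at 1228 and 302 CPM in progenitors and differed from immature neutrophils by -7.36. The difference of S100a9 from classical monocytes, -2.25, did not pass (edgeR adjusted p = 0.0664).

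The genes of the separate fates were called in both directions. Of 8 neutrophil genes, 4 were higher and 1 lower than in classical monocytes, while 1 was higher and 6 were lower than in immature neutrophils. Gstm1, a glutathione transferase, was higher and Cd177, a neutrophil surface protein, lower in both contrasts. Cebpe was at 42.0 and 35.8 CPM in WT and mutant progenitors, 5.95 and 11.4 CPM in classical monocytes and 315 and 230 CPM in immature neutrophils. Its log2 differences were 2.10 (edgeR adjusted p = 0.0165) and -3.27 (0.000648). Of the monocyte genes, 3 of 7 tested were lower and none higher than in classical monocytes, and 4 of 8 were higher and 1 lower than in immature neutrophils. Irf8 was at 329 and 420 CPM in progenitors and 50.6 and 83.9 CPM in immature neutrophils, a log2 difference of 2.03 (SE 0.19, edgeR adjusted p = 0.000291). Against classical monocytes, Irf8 differed by 0.34 and F13a1 by -0.21, neither of which passed (edgeR adjusted p = 0.194 and 0.706). F13a1 was 2.71 higher than in immature neutrophils on the log2 scale. Levels in the progenitors of both libraries lay above those in immature neutrophils for both genes.

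Myc and Myb were higher in progenitors than in both populations, and the lists of factors and of stem cell genes were mixed. Myc, a driver of growth and division, was at 47.7 and 70.2 CPM in WT and mutant progenitors, 1.78 and 2.28 CPM in classical monocytes and 2.77 and 0.686 CPM in immature neutrophils. Its log2 differences were 4.75 and 4.73 (edgeR adjusted p = 0.00285 and 0.00117). Myb differed by 4.33 and 2.0 (edgeR adjusted p = 0.00117 and 0.00481). Of 14 myeloid transcription factors, 4 were higher and 2 lower than in classical monocytes, and 6 were higher and 4 lower than in immature neutrophils. The factors that were lower were Cebpb and Zeb2 in the first contrast and Cebpd, Cebpe, Ikzf1 and Spi1 in the second. Of 11 stem and multipotent progenitor genes tested, 4 were higher and 1 lower, then 5 higher and 2 lower, with Gata2 among the higher genes in both. The 7 basophil-gene members held 77 of 80 WT and 64 of 71 mutant Gata2 UMIs, and without them its call against immature neutrophils was lost. Sox4, a factor of immature cells, differed by 2.16 and 1.85. Kit was higher than in classical monocytes by 2.38, and its difference from immature neutrophils, 0.97, did not pass (edgeR adjusted p = 0.158). Ly6a, which encodes Sca-1 and is a marker of stem cells that granulocyte-monocyte progenitors lack, was lower in both contrasts.

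Csf3r was among the receptors for growth factors and cytokines that were lower in both contrasts. Of 13 tested, 8 were lower and none higher than in classical monocytes (median -0.87), and of 14 tested, 5 were lower and 1 higher, Ccr2, than in immature neutrophils (median -0.32). Csf3r, the G-CSF receptor, was at 58.4 and 58.3 CPM in progenitors, 173 and 162 CPM in classical monocytes and 175 and 203 CPM in immature neutrophils. It differed by -1.55 and -2.17 (edgeR adjusted p = 0.00246 and 0.000291). Csf1r was lower than in classical monocytes by 1.83 on the log2 scale.

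No gene of the cell cycle and secretory lists was lower in either contrast. Against classical monocytes 10 of 14 S phase genes and 11 of 16 G2 and M phase genes were higher and none lower, with medians of 1.64 and 1.51. Against immature neutrophils 4 of 14 S phase genes were higher, and none of the 16 G2 and M phase genes passed in either direction (median 0.39). Of 14 genes of protein folding and export in the endoplasmic reticulum, 7 were higher than in classical monocytes (median 0.67) and 12 higher than in immature neutrophils (median 1.22), with none lower. Calr, the chaperone calreticulin, also listed with the primary granule genes, differed by 0.98 and 1.75. Manf, a protein induced by stress of this organelle, differed by 1.23 and 1.53. Alas1, the first enzyme of heme synthesis, was the only one of 8 such enzymes to pass, against classical monocytes. No heme enzyme passed against immature neutrophils.

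Most interferon-stimulated genes were low in the progenitors of these inflamed joints. Of 14 such genes, 13 were lower than in classical monocytes (median -3.18) and 12 lower than in immature neutrophils (median -2.50), with none higher. Isg15, a ubiquitin-like antiviral protein, was at 34.2 and 18.6 CPM in WT and mutant progenitors, 313 and 239 CPM in classical monocytes and 127 and 142 CPM in immature neutrophils. Its log2 differences were -3.39 and -2.83 (edgeR adjusted p = 0.000844 and 0.000396). Irf7, a regulator of interferon production, was at 6.4 and 6.62 CPM in progenitors and differed by -4.08 and -2.88. Both libraries showed the same direction for both genes. Of 13 inflammatory mediators, 9 were lower than in classical monocytes (median -1.96) and 5 lower than in immature neutrophils (median -0.65). Il1b, the cytokine interleukin-1 beta, differed by -2.31 and -1.42. Il6, interleukin-6, was the mediator that was higher than in immature neutrophils, at 237 and 101 CPM in WT and mutant progenitors against 9.88 and 5.03 CPM (log2 difference 4.00, edgeR adjusted p = 0.000576). Against classical monocytes, at 205 and 120 CPM, Il6 differed by -0.01 (edgeR adjusted p = 0.99).

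**Figure D4:**
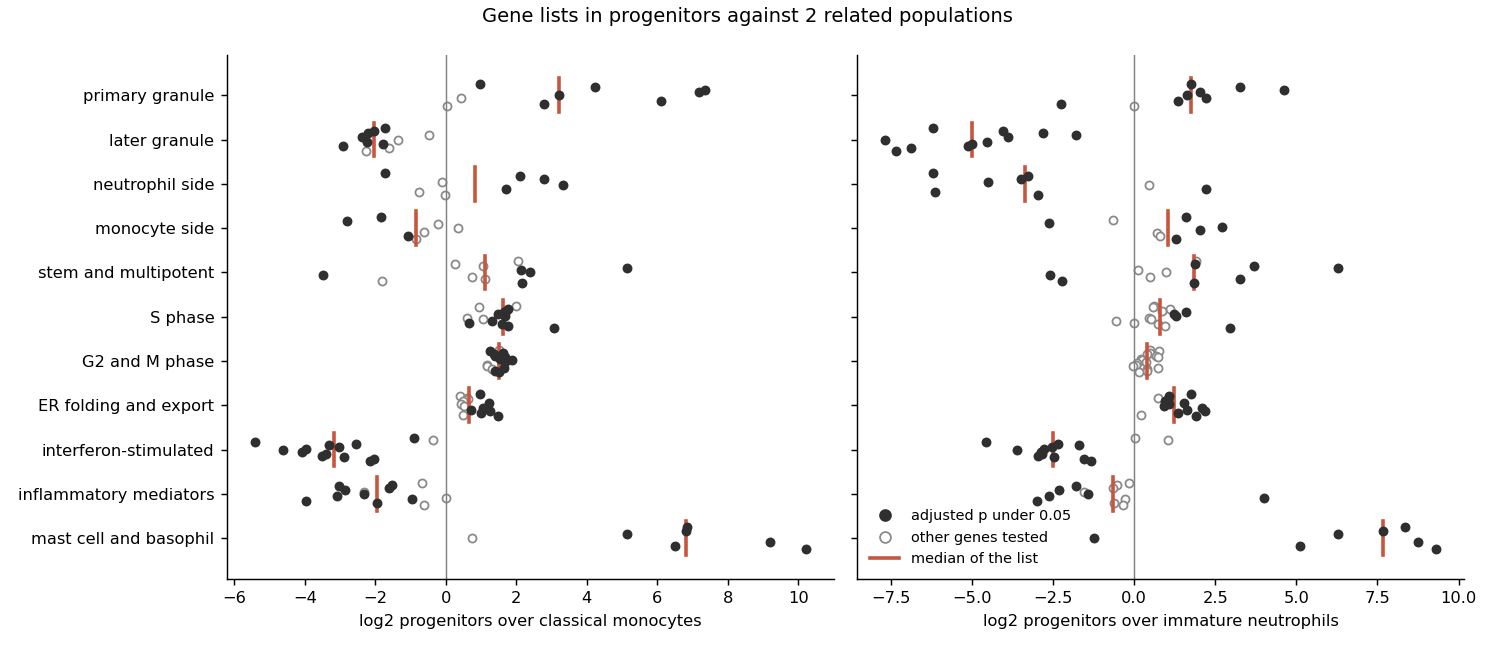
Log2 difference of progenitors from classical monocytes and from immature neutrophils for each tested gene of the fixed lists. Filled points passed an edgeR adjusted p of 0.05, red bars are list medians, and genes with 0 UMIs on one side are drawn at their bound; interferon-stimulated genes lie mostly below 0 and primary granule genes mostly above it in both contrasts.

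The genes with the largest log2 differences were led by the 7 basophil-gene members. Of the mast cell and basophil list, 6 of 7 genes tested were higher in each contrast. Its summed level was 2681 CPM in WT and 4755 CPM in mutant members. Mcpt4, a connective tissue mast cell protease, was at 0. Hdc, which makes histamine and is also expressed by neutrophils, was lower than in immature neutrophils. Prss34 differed from classical monocytes by 10.22 and from immature neutrophils by 9.32 (edgeR adjusted p = 1.3e-05 in both). Fcer1a had no UMI in either other population, so it was at least 114-fold and at least 202-fold higher against a floor of 3 UMIs over the group. Gata2, a factor of mast cells and early progenitors, differed from immature neutrophils by 6.28. Without the 7 cells it differed by 2.88 and no longer passed (edgeR adjusted p = 0.0617). Muc13, a membrane mucin, was at least 57.4-fold higher than in classical monocytes and still passed without these cells (edgeR adjusted p = 0.00213). Dnajc6, auxilin, was at least 79.6-fold higher and also still passed (edgeR adjusted p = 0.00344). Hmga2, a chromatin protein of immature cells, was at least 14.4-fold higher. Without the 7 cells 1125 genes were higher and 1384 lower than classical monocytes, and 1483 and 1951 in the other contrast.

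The lowest genes in these contrasts had no UMI in the progenitors. Ccl12, a chemokine of macrophages, was at least 47.2-fold lower than in classical monocytes and at least 13.9-fold lower than in immature neutrophils. Siglech, a marker of plasmacytoid dendritic cells, was at least 23.4-fold lower than in the monocyte gate, which thus held some UMIs of another lineage. Slc1a2, a glutamate transporter, was at least 27.3-fold lower than in that gate, but turned to a log2 difference of 0.23 with a limit of 10 UMIs. Against immature neutrophils, Itgb2l, an integrin chain of maturing neutrophils, was at least 97.9-fold lower. Ankrd22 was at least 68.2-fold, Ppp1r42 at least 47.8-fold and Cpa6 at least 43.9-fold lower.

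Markers of other cell types were mostly scarce in the members. Of 10 macrophage genes, 9 in WT and all in the mutant had a UMI, summing to 360 and 244 CPM, with Apoe, an apolipoprotein, most abundant. Of 10 dendritic cell genes 7 were detected, at 391 and 319 CPM, with Siglech, Xcr1 and Cd209a at 0. Of 8 B cell genes, 4 and 7 were detected, at 127 and 155 CPM, with Ighm most abundant, and Cd79a, Pax5 and Vpreb3 were at 0 in WT. Eosinophil genes summed to 7.12 and 14.6 CPM, with Epx, Ear1, Ear6 and Il5ra at 0. Endothelial genes summed to 144 and 126 CPM, with Pecam1, also made by leukocytes, most abundant. Fibroblast and matrix genes summed to 76.1 and 404 CPM, with Sparc most abundant in WT and Col3a1 in the mutant, but to 76.2 and 30.7 CPM in deep members, the direction turned. Erythroid genes were at 30005 CPM in mutant members against 5785 CPM in WT members, with the beta globin gene Hbb-bs most abundant in both. In deep members they were at 17576 and 5790 CPM, and 2 cells of each library carried most of this, with 3501 and 2365 Hbb-bs UMIs in the mutant and 2213 and 2084 in WT. Deep members had 177 CPM of macrophage genes and 187 CPM of dendritic cell genes in the mutant, against 360 and 391 CPM in WT. The part of these other RNAs in the differences between genotypes was not tested.

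Between genotypes, the 3874 genes with at least 100 UMIs over the members of both libraries together were compared. A gene was called when its mutant over WT ratio of CPM passed 2-fold and its conditional binomial interval left out no change. By this rule 67 genes were higher (1.73% of those tested) and 80 lower (2.07%) in the mutant. With TMM scaling the counts were 53 and 99, and with C1q cells admitted the balance turned, to 126 and 49. The median log2 ratio of all genes was -0.02. Of 67 higher genes, 62 were also past 2-fold in the same direction in deep members, 21 in immature neutrophils and 19 of the 64 with a value in classical monocytes. Of 80 lower genes, the counts were 76 in deep members, 8 in immature neutrophils and 12 of 78 in classical monocytes. A single cell gave at least 50% of the UMIs of 2 of the higher and 14 of the lower genes.

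The ratios of the rule's own genes only describe the members. Log2 mutant over WT ratios were -0.02 for Elane, 0.50 for Mpo, -0.43 for Prtn3, -0.19 for Ctsg and -0.22 for Ms4a3. In deep members they were -0.12, 0.50, -0.41, -0.16 and -0.23. Of the primary granule genes, none of the 9 outside the rule was called in either direction. The same held for the 8 monocyte genes (median -0.34), 9 receptors (-0.02), 10 S phase genes (-0.21), 16 G2 and M phase genes (-0.21), 14 folding and export genes (0.01) and 4 interferon-stimulated genes (-0.11). These lists describe 1 library per genotype, and a gene short of 2-fold is not shown to be alike.

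Inflammatory mediators were lower in the mutant members. Of 10 tested, 6 were called lower and none higher (median -1.36). Ccl3, a chemokine that attracts myeloid cells, ran from 0 to 66 UMIs per cell in WT members, with a median of 4, and from 0 to 10 in mutant members, with a median of 0. WT members were at 349 CPM and mutant members at 60.9 CPM (log2 ratio -2.52, interval -2.99 to -2.08), with a UMI in 34 of 51 and 14 of 45 members. Detection follows depth, and among deep members 34 of 50 in WT and 9 of 24 in the mutant had a Ccl3 UMI. Single cells of the genotypes overlapped, although the WT library held the highest cells. Ccl4, a chemokine of the same family, ran from 0 to 141 with a median of 3 in WT and from 0 to 22 with a median of 1 in the mutant, at 561 and 132 CPM (log2 ratio -2.08). Cxcl2, a neutrophil-attracting chemokine, ran from 0 to 149 with a median of 4 in WT and from 0 to 14 with a median of 1 in the mutant, at 685 and 156 CPM (log2 ratio -2.13). Tnf, tumor necrosis factor, ran from 0 to 59 with a median of 2 in WT and from 0 to 8 with a median of 0 in the mutant, at 184 and 42.4 CPM (log2 ratio -2.12). The order was the same for all 4 genes, with lower medians and lower maxima in the mutant. The medians per 10000 UMIs, in WT and mutant members, were 1.52 and 0 for Ccl3, 1.07 and 0.422 for Ccl4, 1.66 and 0.658 for Cxcl2 and 0.507 and 0 for Tnf. Ccl6 and Il6 had log2 ratios of -1.48 and -1.23, whereas Il1b was at -0.74 and Ptgs2, the inducible cyclooxygenase, at 0.26, and neither was called. A basophil-gene member held the most Il6 UMIs in either library, 36.0% in WT and 32.9% in the mutant, and without all 7 such cells Il6 was at -1.01. Il6 fell short of 2-fold with the 0.2% limit (-0.92) and in members with no C1q UMI (-0.97).

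In deep members, which leave out the shallow droplets, the log2 ratios were -2.54 for Ccl3, -2.19 for Ccl4, -3.07 for Cxcl2 and -2.34 for Tnf. In classical monocytes the same ratios were -0.98, -1.16, -0.21 and 0.18, and in immature neutrophils -0.36, -0.38, -0.38 and -0.09. Whether the progenitors differed from these populations was not tested. Cxcl2 depended on the choice of cells, with -0.24 when cells with C1q UMIs were admitted and -0.39 as a mean over cells of their CPM. Ccl3 was at -1.87 with C1q cells admitted. Genotype and library cannot be told apart.

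Single regulators also differed. Myb had a log2 ratio of 1.16 (0.85 to 1.47), at 115 CPM in WT and 256 CPM in mutant members, and 1.21 in deep members. Cebpb, a C/EBP factor of emergency granulopoiesis, was at 952 and 424 CPM (-1.17, and -1.11 in deep members). Among the other listed genes Meis1, a homeobox factor of stem cells, was at 1.27, Alas1 at 1.17 and Fcnb at 1.76, all higher in the mutant. Trem3, an activating receptor, was lower at -1.10. In deep members these ratios were 1.38, 1.14, 1.72 and -1.14. Mcpt8 was higher, at 2.25, and all but 6 of its 2305 UMIs lay in the 7 basophil-gene members, so its ratio follows 3 against 4 cells. Later granule genes were called lower for 5 of 11 tested, Lcn2, Ngp, Retnlg, S100a8 and S100a9 (median -0.93). Single cells carried much of this, since 1 WT member gave 60.2% of Retnlg, 80.2% of Ngp, 51.2% of Lcn2 and 46.6% of S100a9 UMIs. The direction turned with doublets removed for Retnlg (0.69), Ngp (0.49), Lcn2 (0.28) and S100a9 (0.27), and for all 5 genes with the 0.2% limit, from 0.40 for S100a8 to 2.32 for Retnlg. By the mean over cells of CPM it turned for S100a9 (0.91), Ngp (0.87) and S100a8 (0.35). Of these 5 genes, Ngp was part of the rule.

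Of the genes with the largest ratios, some moved alike in other populations, some rested on single cells and others did neither. Hba-a2 was 4.22, Hbb-bs 2.24, Hbb-bt 2.19 and Hba-a1 2.15 higher in mutant members on the log2 scale. These alpha and beta globin genes have near-identical copies whose counts are uncertain, and in deep members, where 2 cells of each library held most Hbb-bs UMIs, the ratios were 3.48, 1.47, 1.64 and 1.22. Rpl29, a ribosomal protein gene, had 2070 UMIs in WT and 20 in mutant members (-5.80), and was at -6.00 in immature neutrophils, -5.69 in classical monocytes, -5.41 in endothelial cells and -5.17 in mature neutrophils. A difference of this kind in every population cannot be told apart from one between the libraries. Gm10076, Hist1h2ap and Hopx also kept their direction in both populations. The smooth muscle genes Acta2, Myh11 and Tagln were at -6.27, -6.08 and -5.12, and 1 WT cell gave 93.0%, 85.7% and 95.9% of their UMIs. With doublets removed, Acta2 turned to 0.88 and Tagln to 2.46, and with the 0.2% limit Acta2, Myh11 and Tagln turned to 3.06, 0.15 and 3.32. Gsn, gelsolin, an actin-binding protein, was higher at 2.18 over all members and lower at -1.73 in deep members and at -1.55 in classical monocytes. Mir155hg, the host transcript of a microRNA of immune activation, was at -3.59, with 112 UMIs in WT and 5 in mutant members, and higher in the mutant in immature neutrophils and classical monocytes (2.97 and 1.32). Ly6c1, a paralogue of Ly6c2, was at -3.83 in members and -5.26 in classical monocytes, but at -0.30 in immature neutrophils, -0.37 in endothelial cells and 1.18 in mature neutrophils.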

How the data were processed

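TMJ cells of both genotypes were captured on the 10x Chromium system, and the authors aligned and counted them with Cell Ranger 7.0.1 on GRCm38 (mm10) and deposited filtered matrices of raw UMI counts. The labels name the 3' v2 protocol and the study's methods the v3.1 kit, and their digestion enzymes differ too. Whether intronic reads were counted was not given in the sources used here.

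The matrices, with 32285 genes, were read in Python 3.11.15 (scanpy 1.11.5, scipy 1.17.1) and gated on raw counts, with cells kept at 500 or more genes and under 10% mitochondrial UMIs, the study's filter. No clustering or normalization entered the gates. Doublets were marked by Scrublet scores at an expected rate, since its own threshold marked 0 barcodes. It marked 239 of 5469 WT and 462 of 7603 mutant barcodes, and members so marked were kept. Levels are summed UMIs over the population's total (CPM) with Poisson intervals, and thinned shares are expectations over all random draws, rounded to whole cells. Population contrasts used edgeR 4.0.16 (R 4.3.3, TMM, library block) on 8 sums of 4 populations in 2 libraries. The block is the library, in which populations share cells, tissue and handling. On simulated counts, 76.2% of 193 genes changed 4-fold were recovered against classical monocytes (10095 genes) and 79.2% of 192 against immature neutrophils (10026 genes). For the ratio between genotypes, 100% of 186 were recovered. DESeq2 1.42.0 was an alternative, as were other gates, depths, minimums and scalings. Named genes were the markers, called members of the gene lists and the 10 highest and lowest per contrast. For the population contrasts these had the same sign in both libraries and were ranked by log2 difference, and for genotypes they were ranked by the interval bound nearest no change.

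The members and lists were chosen with earlier results of these data known. Results of a few genes that these rules would name are not reported here.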

Additional observations from a re-analysis of the deposited data

Results flagged for a closer look

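Mir155hg, the host transcript of a microRNA induced on immune activation, differed between genotypes in opposite directions among the populations. Its log2 ratio of mutant over WT was -3.59 in the members, 2.97 in immature neutrophils and 1.32 in classical monocytes. With 1 library per genotype the difference between populations was not tested. Barcodes outside the kept cells also passed the UMI limits of the rule. There were 6 such barcodes among 1357 in WT, with 13% to 36.3% mitochondrial UMIs and a median of 3632.5 UMIs, and 7 among 2089 in the mutant, with 10.2% to 25.9% and a median of 6308 UMIs. All 13 were left out by the mitochondrial limit, and none by the limit on genes.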

How the results depend on the processing

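Most values kept their direction under the alternatives tried, but the shares and gene counts moved with the gate and the depth. Of 269 recomputed shares and counts, 229 kept their size or call, 39 moved and 1 turned. The WT share was 1.56% with 10 UMIs as the limit, 2.08% among kept cells with 6000 UMIs or more and 3.50% of cells with a Ptprc UMI. The mutant share was 0.417% with a limit of 40 UMIs and, again, with members of 6000 UMIs or more, 1.37% with 0.2% of UMIs as the limit, 0.434% with no C1q UMI allowed and 1.28% of Ptprc cells. The difference was 0.384 points with the 0.2% limit, the direction turned, -1.13 among kept cells with 6000 UMIs and -2.22 of Ptprc cells. Shares of members with cell cycle or lineage UMIs rise with depth and fall with the minimum by construction. For WT and mutant members, the G2 and M phase share was 74.0% and 69.2% at 5000 UMIs, 80.0% and 81.4% for 1 UMI or more, 40% and 32.6% for 5 or more, and 84.0% and 79.2% at 9000 UMIs. The neutrophil-list share was 42.0% and 42.3%, 44.0% and 48.8%, 2% and 0%, and 60.0% and 58.3% in the same order. The monocyte-list share moved to 86.0% in WT at 9000 UMIs and to 44.2% in the mutant for 5 UMIs or more. Genes higher in the mutant numbered 126 with no C1q limit, 138 with a minimum of 50 UMIs, 34 with 200 and 282 past 1.5-fold. Genes lower numbered 49, 186, 31 and 287 under these settings, 154 with a limit of 40 UMIs and 167 by the mean over cells of CPM.

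Without the library block, 699 genes were higher than classical monocytes and 1038 lower, and 1097 were higher than immature neutrophils and 1556 lower. No replicate could be left out between genotypes, with 1 library each, and the sign in each library was part of the choice of named genes in the population contrasts. Of 809 recomputed contrasts of named genes, 16 lost their call and 1 turned, Slc1a2, at 0.23 with 10 UMIs as the limit. The 809 include values of each library alone. Those could not turn, since the sign was part of the choice, and had no p-value by which to lose a call.

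Of 612 recomputed mutant over WT ratios, 451 kept their size or call, 128 moved and 33 turned, and the cause was not tested. The turned log2 ratios follow. In deep members, alone or among deep cells, Gsn was at -1.73 and Sparc at -4.49. With a limit of 40 UMIs Gsn was at -0.85 and Sparc at -2.69, and with no C1q limit Sparc was at -0.16. With the 0.2% limit Acta2 was at 3.06, Sparcl1 at 1.73, Myh11 at 0.15, Tagln at 3.32, Retnlg at 2.32, S100a9 at 1.45, Ngp at 1.78, S100a8 at 0.40 and Lcn2 at 1.14. With doublets removed Acta2 was at 0.88, Sparcl1 at 0.88, Tagln at 2.46, Retnlg at 0.69, S100a9 at 0.27, Ngp at 0.49 and Lcn2 at 0.28. With a granule limit of 2%, S100a9 was at 0.51, Ngp at 0.79 and S100a8 at 0.25, and with 0.5%, Ngp at 0.28. With no C1q limit S100a9 was at 0.28 and S100a8 at 0.34. By the mean over cells of CPM S100a9 was at 0.91, Ngp at 0.87 and S100a8 at 0.35, and without the top cell Ngp was at 0.057. Genes under 100 UMIs were not compared between genotypes.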
